A study of Mus musculus with 6 samples.

Results

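AP-1 and Egr proteins are transcription factors whose genes are switched on within minutes when a cell is stimulated, before new protein has been made, and they are therefore called immediate early genes. The 10 genes described here are 3 Jun genes (Jun, Junb and Jund), 3 Fos relatives (Fosb, Fosl1 and Fosl2), Atf3 and 3 Egr genes (Egr1, Egr2 and Egr3). They were chosen by gene symbol among 13409 named genes on the arrays, with earlier results of these data known. Each of the 10 is measured by 1 probe. AP-1 is a dimer of leucine zipper proteins: Jun proteins pair with each other, with Fos proteins or with Atf3, and the dimer binds AP-1 sites or cAMP response elements. Egr proteins bind GC-rich sites through zinc fingers. In fat cells, adrenergic receptors that raise cAMP and activate protein kinase A are known to induce several of these genes, and Egr2 is known for a role early in the formation of fat cells from their precursors.

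White fat of the epididymal depot came from male C57BL/6J mice aged 12 weeks, killed 3 hr after an injection of CL-316,243 at 1 mg per kg body weight or of saline. CL-316,243 is an agonist of the beta3-adrenergic receptor of fat cells. RNA of 6 mice was combined into 1 pool per treatment, and both pools were hybridised together on 6 two-colour spotted arrays. Arrays 1, 2 and 3 carried the agonist pool in channel 1, and arrays 4, 5 and 6 carried it in channel 2, so the dyes were swapped between these groups of 3. Since no other RNA was hybridised, all arrays repeat 1 comparison of 2 pools. Every p-value below covers the spread between arrays and says nothing of the spread between mice, and the precision is limited by how few arrays there are. Whole fat was used, so in these ratios more cells of a type and more RNA per cell cannot be told apart.

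Values are log ratios of the pools, taken as log2 (a natural log would make every log2 value 1.44 times larger). The labels do not say which pool is the numerator. A positive ratio is therefore called higher in the numerator pool, and all directions turn if that pool is saline. Of 78 genes with a mean of at least 1 in size in each dye orientation, 77 had the same sign in both, as in a ratio that follows the pool and not the channel, although the alignment described next favours equal signs and these genes were picked for large means. Over all kept values, rank correlations between arrays were lower across orientations (mean 0.108, range -0.012 to 0.173) than within them (mean 0.282, range 0.086 to 0.421). All 4 tested brown fat genes had positive ratios, among them Dio2, the deiodinase that activates thyroid hormone, at 1.18. Deposited columns had lost spots, so each column was first aligned to probe numbers by its likeness to the other arrays, and a value was kept where its position had a posterior of at least 0.95. This step raises the likeness between arrays by construction. It kept 96.4% to 99.8% of probes on arrays 1, 3, 5 and 6, 92.0% on array 4 and 63.9% on array 2. Arrays 2 and 4 also had the widest spread, with SDs of 0.788 and 0.573, against 0.417 to 0.456 on the others. Of 60 values of the 10 genes, 52 were kept; 5 of those not kept are on array 2 and 3 on array 4.

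The 4 genes that passed the test below are Egr2, Jun, Junb and Jund, and the sequences around their starts are shown because these genes had positive ratios together. RefSeq windows in build GRCm38.p6 run from 250 bases before to 50 after the annotated start, and were held for 7 of the 10 genes. Capitals mark matches to the motifs named beneath.

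Egr2, chr10:67537619-67537918, plus strand: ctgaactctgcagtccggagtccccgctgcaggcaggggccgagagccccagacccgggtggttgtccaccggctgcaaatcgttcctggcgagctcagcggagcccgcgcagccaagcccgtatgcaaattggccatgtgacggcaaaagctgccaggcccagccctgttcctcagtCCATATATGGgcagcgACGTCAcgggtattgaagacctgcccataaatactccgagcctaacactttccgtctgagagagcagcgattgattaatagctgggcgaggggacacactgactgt
Jun, chr4:95052173-95052472, minus strand: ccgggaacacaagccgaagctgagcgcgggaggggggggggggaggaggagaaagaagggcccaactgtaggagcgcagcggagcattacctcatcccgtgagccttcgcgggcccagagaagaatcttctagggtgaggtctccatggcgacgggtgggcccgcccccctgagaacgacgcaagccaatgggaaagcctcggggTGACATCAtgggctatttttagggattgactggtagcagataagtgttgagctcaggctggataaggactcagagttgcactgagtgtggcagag
Junb, chr8:84978699-84978998, minus strand: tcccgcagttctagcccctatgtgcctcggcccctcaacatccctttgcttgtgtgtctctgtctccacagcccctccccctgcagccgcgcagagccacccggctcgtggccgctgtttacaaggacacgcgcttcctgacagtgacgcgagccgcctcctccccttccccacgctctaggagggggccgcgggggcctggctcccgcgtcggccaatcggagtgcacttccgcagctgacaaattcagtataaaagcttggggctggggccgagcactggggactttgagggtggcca
Jund, chr8:70697489-70697788, plus strand: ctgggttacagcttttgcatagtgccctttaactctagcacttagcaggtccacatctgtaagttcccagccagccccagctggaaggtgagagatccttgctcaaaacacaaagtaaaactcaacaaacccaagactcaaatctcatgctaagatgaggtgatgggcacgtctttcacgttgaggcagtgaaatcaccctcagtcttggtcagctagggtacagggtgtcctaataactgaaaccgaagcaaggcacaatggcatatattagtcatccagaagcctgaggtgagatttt

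Motifs were searched on both strands. The Egr2 window holds a CArG box, the element read by serum response factor, beginning 72 bases before the start. A CArG box was found in 1.63% of 32851 promoter windows. The table has 5 Egr2 windows, some of which overlap; 4 hold a CArG box, and these are 2 distinct boxes. The same Egr2 window holds TGACGT, an arm of the cAMP response element, 56 bases before the start on the opposite strand; 7.51% of windows hold it, among them that of Atf3, which was not called, 8 bases before its start. The Jun window holds TGACATCA, a variant of the cAMP response element known from the human gene as a site of c-Jun with ATF2, 45 bases before the start, and 3.62% of windows hold these letters. These last 2 motifs were added after the windows had been read. The AP-1 site TGANTCA (7.81% of windows) and the complete cAMP response element TGACGTCA (1.79%) were in none of the windows of the 7 genes. The Egr site GCGNGGGCG (5.55% of windows) was in those of Fosl2, 79 bases before the start, and of Fosb, 50 bases before it. The windows of Junb and Jund held no searched motif. The Jund window had a GC content of 46.7%, against 56.0% to 72.0% in the other windows. Only windows at annotated starts were searched, and whether fat uses these starts was not tested.

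All 10 genes were tested, and 4 had a ratio that differed from 0 in limma (Benjamini-Hochberg adjusted p under 0.05 over all 12869 genes tested). Egr2, Jund, Junb and Jun all had positive ratios, between 0.88 and 1.70. The 10 were chosen with earlier results of these data known, so the shares over all genes are given as a description. Over all genes tested, 396 were called (3.08%), 246 with a positive ratio (1.91%) and 150 with a negative ratio (1.17%). Counted by probe, 716 of 18535 were called (3.86%). At an unadjusted p under 0.05, 5 of the 10 and 2367 of all genes (18.4%) passed. The median ratio of the 10 genes was 0.54 and that of all genes tested was -0.0115. Of the 10, 8 had a positive ratio. For 5 of them every kept array was positive, as for 896 of all genes tested (6.96%); for none of them was every kept array negative, and 1796 of all genes tested had the same sign throughout (14%).

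**Figure D1:**
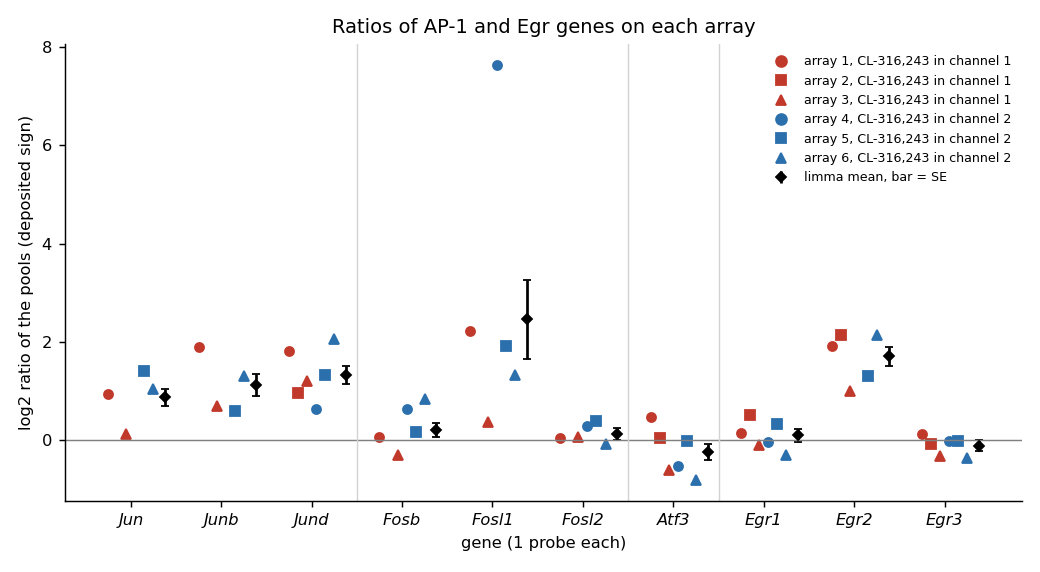
Log2 ratio of the pools (vertical axis, deposited sign) for each of the 10 genes; coloured points are arrays with a kept value, and black diamonds with bars are the limma mean ± SE. All points of Jun, Junb, Jund, Fosl1 and Egr2 lie above 0, the points of the other genes fall on both sides of 0, and Fosl1 on array 4 stands alone at 7.64.

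The Jun genes encode the AP-1 subunits that pair both with each other and with Fos proteins. Jund, which many resting cells express constantly, was kept on all 6 arrays. Its log2 ratios were 1.82, 0.97 and 1.20 on arrays 1, 2 and 3 (CL-316,243 in channel 1). They were 0.63, 1.33 and 2.06 on arrays 4, 5 and 6 (CL-316,243 in channel 2). All 6 arrays were positive, array 6 was highest and array 4 lowest, and the orientations overlapped. The mean was 1.33 ± 0.18 (SE, n = 6 arrays), a 2.52-fold ratio, with a limma adjusted p of 0.00507. The orientation means were 1.33 with CL-316,243 in channel 1 and 1.34 with it in channel 2. Leaving out each array in turn gave 1.16 to 1.51, and Jund stayed called each time. The alignment was not redone for these fits, so the array left out still helped to place the others. Its value on array 2 had a posterior of 0.981, and of 0.777 when the 10 genes were hidden from the alignment; without that value the mean was 1.42.

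Junb, an AP-1 subunit that is induced fast by many stimuli and can oppose Jun at some promoters, was kept on 4 arrays. Its log2 ratios were 1.90 and 0.69 on arrays 1 and 3, and 0.60 and 1.32 on arrays 5 and 6. All 4 were positive, with the high and low arrays divided between the orientations. The mean was 1.13 ± 0.22 (SE, n = 4 arrays), 2.18-fold, with a limma adjusted p of 0.0419. Without array 4, which holds no kept value of Junb but enters the fit of the other genes, the limma adjusted p was 0.0514.

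Jun, the founding AP-1 protein and a target of Jun N-terminal kinase, was also kept on 4 arrays. Its log2 ratios were 0.95 and 0.12 on arrays 1 and 3, and 1.40 and 1.04 on arrays 5 and 6. All 4 were positive, and array 3 was close to 0 while the others lay near or above 1. The mean was 0.88 ± 0.17 (SE, n = 4 arrays), 1.84-fold, with a limma adjusted p of 0.0423. The call ended in several alternatives, among them the fit without array 4 (limma adjusted p 0.0522) and a posterior of at least 0.8, which adds array 2 (ratio 1.14, limma adjusted p 0.056).

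On the 4 arrays shared by all Jun genes, the order of their ratios was not stable. Jund exceeded Jun on 3 of 4 arrays, by 0.72 ± 0.54 (mean ± SD). Jund exceeded Junb on 3 of 4, by 0.47 ± 0.39. Junb exceeded Jun on 3 of 4, by 0.25 ± 0.75. The last difference is smaller than its spread between arrays, and none of these was tested.

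The Fos relatives bind AP-1 sites as partners of a Jun protein, and none of the 3 was called. Fosl1, which encodes Fra-1, had log2 ratios of 2.21 and 0.37 on arrays 1 and 3. They were 7.64, 1.92 and 1.32 on arrays 4, 5 and 6. All 5 arrays were positive, and array 4 alone accounts for most of their range. The mean was 2.46 ± 0.80 (SE, n = 5 arrays), 5.50-fold, the largest of the 10 genes, with a limma adjusted p of 0.149. Without array 4 the mean was 1.45, smaller but with less spread, and the limma adjusted p was 0.0473.

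Fosb, whose shorter splice form is known as delta FosB, had log2 ratios of 0.067 and -0.31 on arrays 1 and 3, and 0.63, 0.16 and 0.84 on arrays 4, 5 and 6. The arrays with CL-316,243 in channel 2 were all positive, and those with it in channel 1 lay on both sides of 0. The mean was 0.21 ± 0.14 (SE, n = 5 arrays) with a limma adjusted p of 0.477. The dye term, which measures how far the orientations differ, had an unadjusted limma p of 0.044 and an adjusted p of 0.462 for Fosb, the lowest of the 10 genes. None of the 10 was called for it, and 1 of all genes tested was (0.00777%).

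Fosl2, which encodes Fra-2, had log2 ratios of 0.038 and 0.074 on arrays 1 and 3, and 0.30, 0.40 and -0.077 on arrays 4, 5 and 6. These values stayed within 0.4 of 0. The mean was 0.13 ± 0.12 (SE, n = 5 arrays), limma adjusted p 0.631, with a 95% confidence interval from -0.15 to 0.41. Fosl1 exceeded Fosl2 on 5 of 5 arrays, by 0.29 to 7.35, and Fosb on 5 of 5, by 0.47 to 7.01.

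Atf3, a cAMP- and stress-responsive bZIP protein that represses many inflammatory genes, had log2 ratios of 0.47, 0.048 and -0.60 on arrays 1, 2 and 3, and -0.53, -0.011 and -0.81 on arrays 4, 5 and 6. Of the 6 arrays 2 were positive, both with CL-316,243 in channel 1, and 4 were negative. The mean was -0.24 ± 0.16 (SE, n = 6 arrays) with a limma adjusted p of 0.467. Jund exceeded Atf3 on 6 of 6 arrays, by 0.92 to 2.87.

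Among the Egr genes, Egr2 was the 1 called. Egr2, also called Krox20, had log2 ratios of 1.91, 2.15 and 1.00 on arrays 1, 2 and 3, and 1.30 and 2.15 on arrays 5 and 6. All 5 were near 1 or higher, with array 3 lowest. The mean was 1.70 ± 0.20 (SE, n = 5 arrays), 3.26-fold, with a 95% confidence interval from 1.26 to 2.15 and a limma adjusted p of 0.00346. Orientation means were 1.68 with CL-316,243 in channel 1 and 1.72 with it in channel 2. Its place on array 4 depended on the alignment: the most likely position gave 2.47 with a posterior of 0.851, and was not kept. When the values of the 10 genes were hidden from the alignment, another position on array 4 was kept with -0.80, and the Egr2 mean was 1.17 with a limma adjusted p of 0.135. In that alignment the Egr2 value on array 2 was no longer kept.

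Egr1, the most widely studied immediate early zinc finger factor, had log2 ratios of 0.16, 0.52 and -0.098 on arrays 1, 2 and 3, and -0.03, 0.33 and -0.30 on arrays 4, 5 and 6. It was positive on 3 arrays and negative on 3. The mean was 0.096 ± 0.12 (SE, n = 6 arrays), limma adjusted p 0.738, with a 95% confidence interval from -0.18 to 0.37.

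Egr3, which is induced with Egr1 in many cells and shares its binding site, had log2 ratios of 0.12, -0.069 and -0.33 on arrays 1, 2 and 3, and -0.0245, -0.0246 and -0.36 on arrays 4, 5 and 6. It was negative on 5 of 6 arrays. The mean was -0.11 ± 0.11 (SE, n = 6 arrays), limma adjusted p 0.632, with a 95% confidence interval from -0.36 to 0.13. Set against its relatives on the same arrays, Egr2 exceeded Egr1 on 5 of 5, by 1.58 ± 0.59 (mean ± SD), and Egr3 on 5 of 5, by 1.83 ± 0.53. The lowest of these differences, 0.97 and 1.32, are larger than their SDs. This holds for the alignment as reported. With the 10 genes hidden from it, Egr2 exceeded Egr1 on 4 of 5 arrays, by 1.10 ± 1.20, and Egr3 on 4 of 5, by 1.23 ± 1.22, and lay below both on array 4, with differences of -0.77 and -0.78. These pairs were set side by side after their ratios were known and were not tested.

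**Figure D2:**
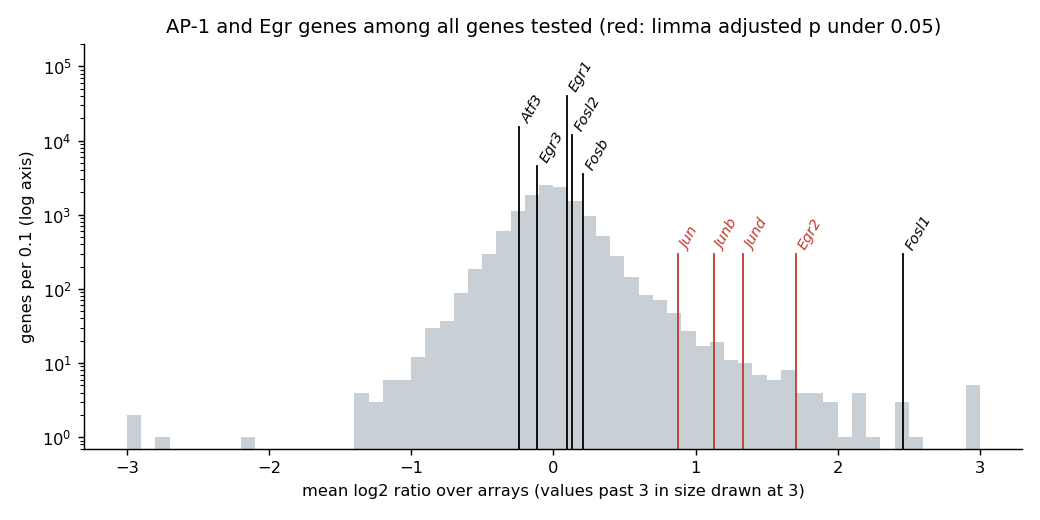
Number of genes (vertical axis, log scale) per 0.1 of mean log2 ratio (horizontal axis) over all genes tested, with the 10 genes as vertical lines, red where called; line heights carry no value. Jun, Junb, Jund, Egr2 and Fosl1 lie in the sparse right tail, and Atf3, Egr3, Egr1, Fosl2 and Fosb lie within the bulk around 0.

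The surroundings of the called genes on the array are given as a description: the genes were named for their large ratios, so standing above their neighbours tests nothing about the alignment. Means of the 10 probes before and the 10 after lay between -0.43 and 0.49 around Egr2, between -0.52 and 0.83 around Jund, and between -0.26 and 0.83 around Junb. These 3 genes had the highest mean in their stretch. Around Jun the neighbours lay between -0.20 and 0.96, so the ratio of Jun, 0.88, was not above all of them. Fosl1, with a plain mean of 2.69 over its arrays, stood above neighbours between -0.64 and 1.03. Of 172 pairings of a called probe with another tested probe of its gene, 138 (80.2%) had the same sign. A pair in which both probes were called was counted from each side. Over all probes tested, 49.4% had a positive ratio. Each of the 10 genes has 1 probe, so no other probe of the same gene could be set beside it.

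**Figure D3:**
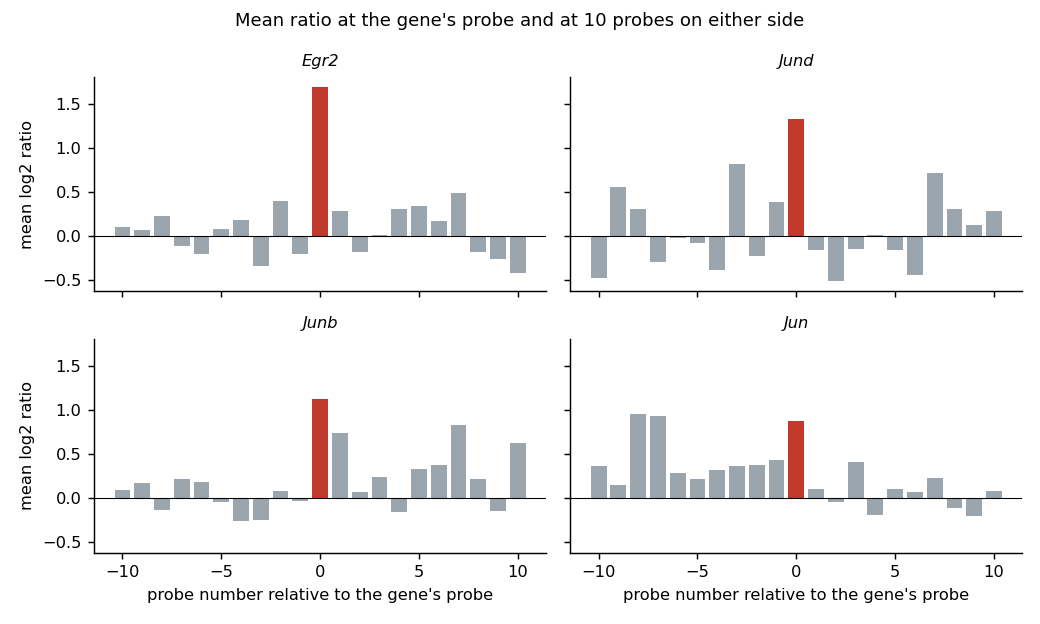
Mean log2 ratio (vertical axis) at the probe of Egr2, Jund, Junb and Jun (red, position 0) and at 10 probes on either side (grey), by probe number relative to the gene's probe. Egr2, Jund and Junb stand above all their neighbours, while 2 neighbours of Jun are higher than Jun.

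Many alternative settings of the alignment and the fit left the kept values of a gene as they were, so only those that gave it another ratio are counted here. The settings differ from gene to gene. Jund was called in 13 of 14 of them, Egr2 in 10 of 12, Junb in 1 of 4 and Jun in 2 of 5. In the settings with the reported ratio, Junb was called in 9 of 11 and Jun in 7 of 10. Jun and Junb could not be refitted without array 1, 3, 5 or 6, which hold all of their kept values. Fosl1, not called as reported, was called in 3 of 11, each of which holds no value of Fosl1 on array 4. Fosb, Fosl2, Atf3, Egr1 and Egr3 were called in none of theirs. The rows as deposited, without any alignment, gave 0 called genes in limma (489 with an unadjusted p under 0.05), and in them Jund had a ratio of -0.0009.

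**Figure D4:**
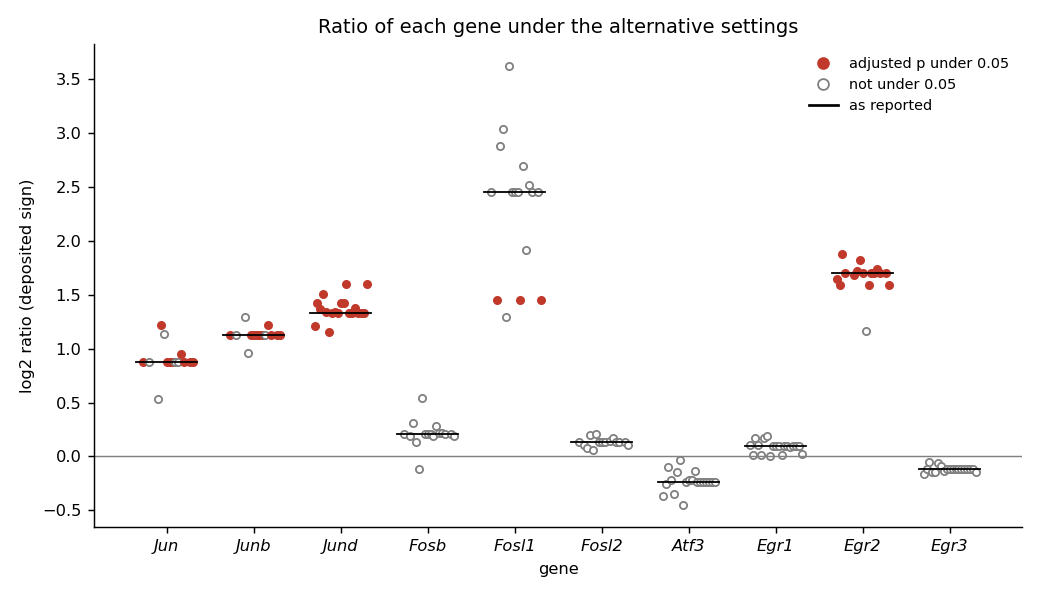
Log2 ratio (vertical axis) of each of the 10 genes under the alternative settings with aligned columns, 1 point per setting, filled red where the limma adjusted p was under 0.05; black bars give the reported value. Every point of Jund is red, the points of Jun, Junb and Egr2 are partly red, and Fosl1 is red only where its ratio is 1.45.

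Jund, the called gene with values on all 6 arrays, was compared with 7767 other such genes. The most like pattern, as the smallest mean absolute difference over the 6 arrays, was that of Ifrd1, an interferon-related regulator of differentiation (difference 0.32, ratio 1.41). Arpc4, a subunit of the actin-nucleating Arp2/3 complex, followed (difference 0.36, ratio 1.22). Ppp2r1a, the scaffold subunit of protein phosphatase 2A, was the third (difference 0.45, ratio 1.51).

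The other immediate early genes were taken from a list of 37, of which 30 could be tested. Of these, 4 were called with a positive ratio (1.91% of all genes tested) and 0 with a negative one (1.17%), 12 had an unadjusted p under 0.05 (18.4% of all), and 23 of 30 ratios were positive with a median of 0.23. Ier2, a nuclear immediate early protein, had a ratio of 1.31 ± 0.22 (SE, n = 6 arrays; limma adjusted p 0.0128). Btg2, an antiproliferative cofactor of mRNA decay, had 1.14 ± 0.16 (n = 5; limma adjusted p 0.00739). Ier3, a survival factor, had 1.03 ± 0.13 (n = 5; limma adjusted p 0.00497), and the growth regulator Myc had 0.72 ± 0.15 (n = 5; limma adjusted p 0.0421). Each of these was positive on every kept array, as were Egr2 and the Jun genes. The matrix protein gene Ccn1 had 0.83 ± 0.23 and the cAMP-induced kinase gene Sik1 0.67 ± 0.15, and neither was called (limma adjusted p 0.109 and 0.051). Fos, the best known partner of the Jun proteins, had too few kept arrays to be tested.

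Among other bZIP proteins and Egr partners, 25 of 30 could be tested. Of these, 3 were called with a positive ratio (1.91% of all genes tested) and 0 with a negative one, 7 had an unadjusted p under 0.05 (18.4% of all), and the median was 0.053. Atf4, the main transcription factor of the integrated stress response, had 1.69 ± 0.16 (SE, n = 6 arrays; limma adjusted p 0.000884), close in size to Egr2. Its relative Atf5 had 0.87 ± 0.13 (n = 5; limma adjusted p 0.012), and Cebpd, a factor of early fat cell differentiation, had 0.76 ± 0.14 (n = 5; limma adjusted p 0.0291). Crem, which yields a cAMP-induced repressor, had 1.05 ± 0.27, and Ddit3, also called Chop, had 0.72 ± 0.17; neither was called (limma adjusted p 0.0822 and 0.0568).

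Of 27 kinases and factors known to act upstream of these genes, 18 could be tested and 0 were called in limma, while 8 had an unadjusted p under 0.05; over all genes tested the shares were 3.08% and 18.4%. Their median ratio was 0.12. The largest were Elk1, the partner of serum response factor at CArG boxes, at 1.40 ± 0.54 (limma adjusted p 0.219), and Prkaca, the catalytic subunit of protein kinase A, at 0.55 ± 0.18 (limma adjusted p 0.164). The values of Elk1 ran from 0.25 to 4.73 over 5 arrays, so its mean carries a wide spread. In 2 alternatives calls appeared in this list. With the alignment on absolute values 1 of 14 was called, with a positive ratio, against 285 of 10728 over all genes tested. In the robust fit 1 positive and 1 negative of 18 were called, against 1172 of 12869 over all genes tested.

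Known targets of AP-1 and Egr proteins were taken from a list of 22, of which 18 could be tested. Of these, 4 were called with a positive ratio (1.91% of all genes tested) and 0 with a negative one, 10 had an unadjusted p under 0.05 (18.4% of all), and 14 of 18 ratios were positive with a median of 0.39. The neutrophil chemokine gene Cxcl1 had 2.50 ± 0.22 (SE, n = 6 arrays; limma adjusted p 0.000674) and the monocyte chemokine gene Ccl2 had 2.12 ± 0.33 (n = 5; limma adjusted p 0.0128). The cytokine gene Il6 had 1.76 ± 0.23 (n = 5; limma adjusted p 0.00571), and Thbs1, an extracellular matrix protein, had 0.73 ± 0.14 (n = 4; limma adjusted p 0.034). Cd44 and Plau, a hyaluronan receptor and a plasminogen activator, had 0.69 ± 0.16 and 0.61 ± 0.19, and neither was called (limma adjusted p 0.0651 and 0.132). These genes answer to many other factors as well, and none of these ratios shows which factor acted on them. Without arrays 2 and 4, the 4 lists had 4 calls of 29 tested, 3 of 25, 0 of 17 and 4 of 16. Over all genes tested, that fit called 243 of 12670.

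Markers of the cells that the tissue could hold were compared in the same way. Over all genes tested, 3.08% were called and 18.4% had an unadjusted limma p under 0.05. Of the adipocyte markers 0 of 6 were called (ratios -0.19 to 1.08, 3 with an unadjusted p under 0.05). Of those of macrophages 0 of 4 were called (-0.13 to 0.40), of endothelial cells 0 of 4 (-0.51 to 0.12, 1 unadjusted), of fibroblasts 0 of 4 (-0.12 to 0.17) and of lymphocytes 0 of 4 (-0.38 to 0.20). Smooth muscle markers were called for 2 of 5 (0.063 to 1.26, 3 unadjusted), namely Acta2 at 0.70 and Cnn1 at 1.26. Tagln at 0.34, Pdgfrb at 0.20 and Myh11 at 0.063 were not called. Of 7 seminal vesicle and epididymis markers, which are not fat genes, 6 were called: 5 had negative ratios, the lowest being Svs5 at -5.47, and Serpina1f had 4.68. Of the brown fat markers 2 of 4 were called (0.45 to 1.18, 4 unadjusted). Their part in the ratios of the AP-1 and Egr genes was not tested. No intensities were used, so how abundant any of these transcripts was, and whether a spot was above background, is unknown.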

How the data were processed

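The cDNA of each pool carried fluorescein (Cy3) or biotin (Cy5) and was, per the labels' protocols, detected by tyramide signal amplification, scanned with a ScanArray 5000 and quantified with QuantArray 3.0. The authors deposited log ratios, read here as log2, that had been scaled between dyes and smoothed by LOWESS, per the labels. The numerator, log base, background correction and spot filter are not stated by any source used here.

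Columns were empty only at their ends, in 29, 724, 38, 169, 8 and 1 rows of arrays 1 to 6. Row by row, rank correlations between arrays lay between -0.031 and 0.034. The columns were therefore aligned to the 19200 probe numbers by a hidden Markov model that allows lost spots and no gained ones (12 starts, 3 rounds, highest summed likelihood kept); this was not foreseen in the design. Kept values correlated at 0.086 to 0.421 within an orientation and at -0.012 to 0.173 across. The platform annotation named 14711 probes by 1 symbol; 14416 matched current Entrez records.

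Log2 ratios were averaged per gene and fitted with limma 3.58.1 (lmFit, eBayes, R 4.3.3) with a dye term, for genes kept on at least 2 arrays of each orientation. Placement (Python 3.11.15) and fit (R 4.3.3) were run on simulated data. The columns simulated for placement held a shared signal and no dye effect. That run therefore does not show how often the real values were placed rightly. The 10 genes and all lists were chosen with earlier results of these data known. Named are all 10 genes and, of each list, up to 4 called genes and up to 2 not called with the largest ratios; patterns were compared only for called genes with 6 values. The markers named singly were chosen after their values were seen. Alternatives covered each array, each orientation, the posterior, the alignment, the dye term, robust fitting, scaling, probes per gene and the number of arrays. The alignment was not redone where arrays were left out. Leaving out arrays 2 and 4 together, and the dye-term counts, were added after seeing the data.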

Additional observations from a re-analysis of the deposited data

Results flagged for a closer look

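The ratio of Fosl1 on array 4, 7.64, stood apart from its values of 2.21, 0.37, 1.92 and 1.32 on arrays 1, 3, 5 and 6. Its gap to the nearest array was 0.746 of the whole range, above Dixon's critical value at the 95% level for 5 values. Chance alone raises about 1 in 20 such groups. The position of this value had a posterior above 0.95, with or without the 10 genes in the alignment, and the alignment on absolute values did not keep it. Without array 4 the mean was 1.45 with a limma adjusted p of 0.0473.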

How the results depend on the processing

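The calls of Jun and Junb lie close to the threshold, and those of Egr2 and Fosl1 turn on the value placed at array 4; without intensities, no limit from spot signal could be set. With only the arrays that held CL-316,243 in channel 1, 46 of 12893 genes, 40 probes and 2 of the 10 genes were called. With only those that held it in channel 2, 216 of 13374 genes and 3 of the 10 were called. Rows as deposited gave 0 genes, 0 probes and 0 of the 10 in limma (489, 699 and 1 with an unadjusted p under 0.05); Fosl1 was then -0.084, Fosl2 -0.26, Jund -0.0009 and Egr3 0.18, against 396 genes and 716 probes as reported. A robust fit called 1172 of 12869 genes, 1558 probes and 2 of the 10. Requiring values on all 6 arrays left 4 of the 10 tested, and 1 was called, against 346 of all 7771 genes tested there. Without arrays 2 and 4, 243 of 12670 genes and 5 of the 10 were called, Fosl1 among them (limma adjusted p 0.0271). Leaving out 1 array at a time gave 126 to 367 genes, 173 to 644 probes and 1 to 4 of the 10: 152 genes without array 1, 218 without array 4 and 126 without array 5. Only 5 of the 10 could be tested without array 1 or 3, and 2 were called each time. Without array 5 or 6 only 7 could be tested, and 1 was called each time. Too few arrays remained for the others. Over all genes tested, these fits called 152 of 7995 without array 1 and 367 of 8039 without array 3. They called 126 of 11776 without array 5 and 293 of 11801 without array 6. Fosb was -0.12 with CL-316,243 in channel 1 only, and Egr1 was -0.0001 with it in channel 2 only. Jun lost its call with CL-316,243 in channel 1 only (0.53, limma adjusted p 0.434), without a dye term (0.0657) and in the robust fit (0.0675). Junb lost its call in either orientation alone (limma adjusted p 0.178 and 0.0901) and in the robust fit (0.0956). The cause of these changes was not tested. No dye term of the 10 genes passed in any alternative. Each ratio compares the pools on the same array, so that pairing is part of every fit. Arrays of opposite orientation were not paired with each other, because the array numbers are not shared between the orientations.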

Other observations

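The 8 values of the 10 genes that were not kept are given here for completeness, with the posterior of their most likely position. On array 2 these were 2.09 for Jun (0.944), 2.80 for Fosl1 (0.735), 1.43 for Junb (0.626), -0.44 for Fosl2 (0.435) and 0.88 for Fosb (0.395). On array 4 they were 2.47 for Egr2 (0.851), 0.97 for Jun (0.627) and 0.57 for Junb (0.467). The values of Jun, Junb, Fosl1 and Egr2 among them were positive. Positions were chosen by likeness to the other arrays, so these signs test nothing. With the 10 genes hidden from the alignment, the most likely values on array 4 were -0.25 for Jun (0.91), -0.37 for Junb (0.61) and -0.80 for Egr2. Those on array 2 were then 2.09 for Jun (0.51), 1.43 for Junb (0.402) and 0.788 for Fosl1 (0.239), so the value of Fosl1 had changed. In the alignment on absolute values, those on array 2 were -0.31 for Jun (0.453), 0.24 for Junb (0.368) and -0.91 for Fosl1 (0.259). None of these values on array 2 was kept, and the signs for Jun and Fosl1 depended on the alignment.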
